A study of Mus musculus with 4 samples.

Results

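The genes described here are 33 genes of DNA replication and mitosis, read in cultured mouse gonocytes with and without retinoic acid (RA). They were taken as a named list, and every probe set that the array annotation assigns to one of them alone was read. All 33 were found, on 79 of the 45037 probe sets analysed and among 18193 named genes. They form an S phase group of 14 genes (Mcm2, Mcm3, Mcm4, Mcm5, Mcm6, Mcm7, Pcna, Tyms, Rrm1, Rrm2, Cdc6, Cdt1, E2f1 and Tk1; 38 probe sets) and a G2/M group of 19 genes (Mki67, Top2a, Ccnb2, Ccna2, Cdk1, Aurka, Aurkb, Bub1, Bub1b, Plk1, Cdc20, Birc5, Kif11, Cenpe, Foxm1, Cenpa, Ttk, Nek2 and Kif20a; 41 probe sets).

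Gonocytes, the germ cells of the testis around birth, had been selected by magnetic beads for the surface protein THY1 from testes of mice at 2 days post partum. They spent 8 h in culture that lacked feeder cells, growth factors and serum, and received ethanol as vehicle or RA at 100 nM. Each condition has 2 samples, numbered 1 and 2 in the titles, and each sample was read on 1 Affymetrix expression array. The labels give no strain, do not say whether animals were pooled, and do not say what the number marks or that the samples are separate cultures, so the p-values cover the spread among the 4 arrays alone, which may be technical.

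A dividing cell first loads the MCM helicase, a ring of the proteins Mcm2 to Mcm7, onto replication origins with the help of Cdc6 and Cdt1. It then makes deoxynucleotides through ribonucleotide reductase (Rrm1, Rrm2), thymidylate synthase (Tyms) and thymidine kinase (Tk1), and copies DNA behind the sliding clamp Pcna. E2F transcription factors, among them E2f1, drive many of these genes, while genes of G2 and mitosis are switched on later through elements that include the cell cycle homology region and CCAAT boxes. Gonocytes arrest before birth and resume division in the days after it, and RA is known for driving spermatogonia towards differentiation.

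Promoter sequences were searched for these elements, and 8 are shown so that the S phase and G2/M groups can be seen beside the expression values that follow. RefSeq promoter windows (build GRCm38.p6, 250 bases before to 50 after the start) were matched for 28 of the 33 genes; Aurkb, Ccna2, Foxm1, Kif20a and Mcm4 had no entry. An E2F element was searched as TTTGGCGC, TTTCGCGC, TTTCCCGC or TTTGCCGC, the cell cycle homology region as TTTGAA or TTCGAA, and the CCAAT box as CCAAT, each on both strands. E2F matches on opposite strands may overlap, and TTCGAA reads the same on both strands. A match is a description of letters, not a bound site. Printed are the 160 bases before the annotated start, 5′ to 3′ on the gene's strand, with matches in capitals on either strand.
Mcm5 (chr8:75109349-75109508, plus strand): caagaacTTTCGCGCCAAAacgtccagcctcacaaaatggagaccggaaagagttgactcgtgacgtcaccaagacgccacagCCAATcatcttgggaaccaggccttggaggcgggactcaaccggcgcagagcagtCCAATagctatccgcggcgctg
Mcm6 (chr1:128359706-128359865, minus strand): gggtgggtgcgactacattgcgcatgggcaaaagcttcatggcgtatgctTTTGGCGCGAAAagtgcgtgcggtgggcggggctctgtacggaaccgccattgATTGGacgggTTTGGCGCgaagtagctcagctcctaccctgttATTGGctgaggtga
Mcm2 (chr6:88898781-88898940, minus strand): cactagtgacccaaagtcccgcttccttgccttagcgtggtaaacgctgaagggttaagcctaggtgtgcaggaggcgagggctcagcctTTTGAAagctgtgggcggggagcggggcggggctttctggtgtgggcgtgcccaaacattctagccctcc
Rrm2 (chr12:24708094-24708253, plus strand): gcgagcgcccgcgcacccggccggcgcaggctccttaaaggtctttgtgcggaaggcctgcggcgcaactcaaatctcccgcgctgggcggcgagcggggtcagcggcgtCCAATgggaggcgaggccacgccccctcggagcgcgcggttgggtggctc
Cdc20 (chr4:118437344-118437503, minus strand): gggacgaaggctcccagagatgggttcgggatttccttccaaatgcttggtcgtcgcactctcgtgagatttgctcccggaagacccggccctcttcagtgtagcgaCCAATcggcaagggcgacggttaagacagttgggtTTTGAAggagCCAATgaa
Cdk1 (chr10:69352913-69353072, minus strand): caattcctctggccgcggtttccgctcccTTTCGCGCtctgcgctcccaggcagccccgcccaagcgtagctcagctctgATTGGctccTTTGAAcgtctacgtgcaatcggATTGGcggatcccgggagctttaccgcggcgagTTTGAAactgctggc
Kif11 (chr19:37376222-37376381, plus strand): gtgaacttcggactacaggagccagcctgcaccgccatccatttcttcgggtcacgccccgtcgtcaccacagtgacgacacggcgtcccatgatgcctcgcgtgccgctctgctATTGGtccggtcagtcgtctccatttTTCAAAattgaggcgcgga
Top2a (chr11:99024190-99024349, minus strand): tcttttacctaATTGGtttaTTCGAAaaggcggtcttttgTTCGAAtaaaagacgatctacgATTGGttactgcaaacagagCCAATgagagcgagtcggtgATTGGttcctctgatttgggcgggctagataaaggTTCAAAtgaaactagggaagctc

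Over the whole 300-base window, an E2F element was present in 6 of 13 S phase genes (Cdc6, Cdt1, Mcm3, Mcm5, Mcm6 and Mcm7) and in 1 of 15 G2/M genes (Cdk1), against 2.61% of the 27025 genes with a promoter in the table. The cell cycle homology region was present in 12 of 15 G2/M genes and in 2 of 13 S phase genes (Mcm2 and Mcm7), against 21.7% of all genes. CCAAT boxes were present in 14 of 15 G2/M genes and 8 of 13 S phase genes, against 41.1% of all genes. A repeat of GGTCA or GTTCA followed after 5 bases by GGTCA or GTTCA was also searched on both strands. It was found in 0 of the 28, against 0.241% of all genes, which says only that these letters are not in these windows. The letters of a full RA receptor element were not searched, so these counts say nothing of such elements.

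The arrays had been scaled alike, with a trimmed mean signal of 125 on each. The 99th percentile of signal lay between 1640 and 1972 on 3 arrays and at 2264.5 on RA array 2. The ratio of 3' to 5' signal of the control transcripts, a sign of RNA and amplification quality, was higher on both RA arrays, at 2.08 and 2.32 against 1.72 and 1.73 with vehicle for Actb and at 1.85 and 2.00 against 1.56 and 1.47 for Gapdh; its part in the results below was not tested. The label was checked against markers. Germ cell genes gave clear signals, with 12 of 12 measured markers above the signal filter and the RNA helicase Ddx4 between 1121 and 1305 on the 4 arrays. Markers of stroma (10 of 10, Col3a1 between 2167 and 2877), Sertoli cells (9 of 11, with Amh and Fshr under the filter), Leydig cells (5 of 5), endothelium (8 of 8), macrophages (7 of 8, with Itgam under it) and mast cells (7 of 7) were measured as well. Of all named genes 13011 of 18193 lay above the filter. Lying above it is thus common, and such counts do not by themselves show how many other cells the samples held. In bulk samples fewer cells of a type and less RNA per cell cannot be told apart.

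RA against vehicle asks which of these genes respond to RA within 8 h. No replication or mitosis gene passed the test, and the differences were small. Each of the 33 genes was read on its brightest probe set. The log2 change on log2(signal + 5) ran from −0.51 for Tyms to 0.42 for E2f1. Of the 33, 32 lay within 0.5 of 0, as did 92.9% of all genes above the signal filter. The median size of the difference, whatever its sign, was 0.13 over the 33 and 0.15 over all those genes. The median was 0.0929 in the S phase group (9 genes positive, 5 negative) and 0.0900 in the G2/M group (15 positive, 4 negative), where the median of 13011 genes above the signal filter was 0.0147. Of those 13011 genes, 6877 were positive. In limma, 0 of the 33 genes and 0 of the 65 member probe sets above the filter passed at an adjusted p under 0.05, as did 0.0% of all 27022 probe sets. At an unadjusted p under 0.05 there were 2 member probe sets, one of Mcm2 and one of Rrm2, where the share over all probe sets was 2.75% (1.1% higher and 1.65% lower). With equal array medians the median of all genes itself shifted to 0.101, and the group medians were 0.183 and 0.179.

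The fit sets bounds on what these arrays can have missed. The standard error of a log2 change was 0.21 at the median over the 33 genes and between 0.19 and 0.34. For 32 of the 33 the 95% interval lay within a 2-fold change in either direction; the exception was Tyms, with an interval from −1.29 to 0.28. Over the member probe sets above the filter it did so for 55 of 65, against 73.4% of all probe sets; the other 10 were probe sets of Mcm2, Tyms, Rrm2, Top2a, Aurkb, Bub1b, Kif11, Foxm1 (2) and Cenpa. The highest upper bounds were 0.99 for E2f1, 0.85 for Nek2 and 0.84 for Mcm7. For 1 gene at this size, the smallest p that an exact permutation test (two-sided) can give is 0.33. In simulated data with seeded changes, the fit called none of those of 2-fold. There the spreads were dealt to probe sets at random, whatever their signal, so that result sets no bound for these genes.

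**Figure D1:**
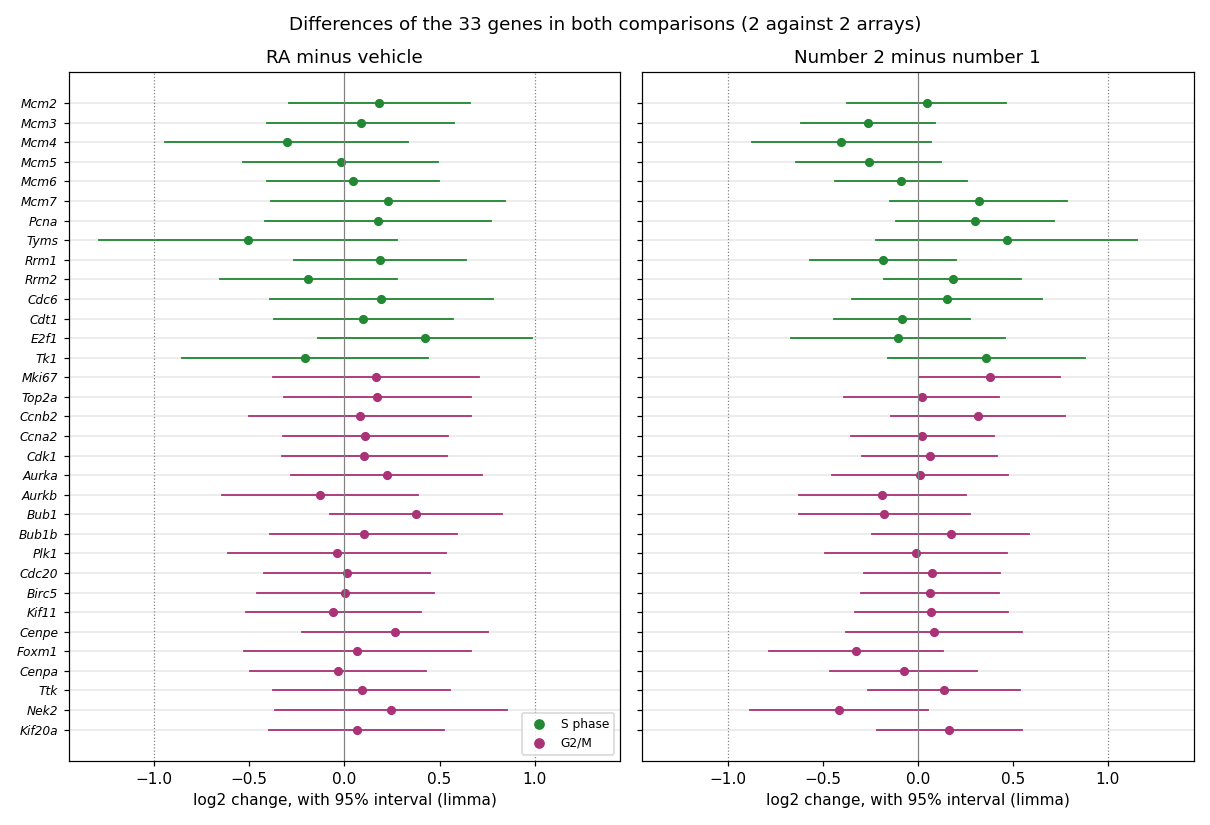
Log2 change of each of the 33 genes on its brightest probe set, RA minus vehicle (left) and number 2 minus number 1 (right), with the 95% interval of the limma fit (2 against 2 arrays); dotted lines mark a 2-fold change. All intervals but that of Tyms lie between the dotted lines in both panels, and Mki67 in the right panel is the one gene whose interval leaves out 0.

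The RA arrays were both above the vehicle arrays in 8 of the 33 genes and both below in 2, against 14.1% and 12.6% of genes above the filter, so that the groups were separated in 10 genes (30.3%) where 26.8% of all genes were. The 8 were Rrm1, Cdc6 and E2f1 of the S phase group and Ccna2, Cdk1, Aurka, Bub1 and Cenpe of the G2/M group; the 2 were Tyms and Rrm2. The share separated in either direction was thus near the background. By direction, 24.2% of the 33 were above, a larger share than over all genes, and 6.06% were below, a smaller one. The cell type markers had these values with RA. Germ cell markers, those of the labelled cells, had a median of −0.22 (11 of 12 negative, 3 with both RA arrays below). Among markers of other cells, the median was 0.28 for endothelium (8 of 8 positive, 3 with both RA arrays above). It was −0.36 for mast cells (6 of 7 negative, 3 with both below). For Leydig cells it was −0.26 (4 of 5 negative) and for macrophages −0.24 (6 of 8 negative), with 0 separated in either list. For stroma it was 0.10 (7 of 10 positive, 1 with both above). For Sertoli cells it was −0.00124 (6 of 11 negative, 2 with both above). The part of all these markers in the values below was not tested.

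E2f1, the transcription factor that activates S phase genes, read 101 and 80.9 with vehicle and 119 and 127 with RA. Both RA arrays were higher, and the log2 change was 0.42 ± 0.24 (SE, n = 2 per group; limma, unadjusted p = 0.12, adjusted p = 1). A dimmer probe set of E2f1 above the filter gave 0.12. The change of the main probe set was between 0.27 and 0.58 with any 1 array left out.

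Mcm2 showed the largest positive difference among the member probe sets above the filter, on the dimmer of its 2 probe sets. That probe set read 267 and 215 with vehicle and 368 and 359 with RA, 1.51-fold higher on the log2(signal + 5) scale with both RA arrays above (log2 change 0.59 ± 0.20; limma, unadjusted p = 0.0202, adjusted p = 1). The brighter one read 400 and 492 with vehicle and 542 and 469 with RA, so that the groups overlapped (0.18 ± 0.21). Both values are positive, and the groups were separated on the dimmer probe set alone.

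Among the other helicase subunits, Mcm3 was at 0.09 on its brightest of 5 probe sets and between −0.02 and 0.37 on the others; the one at 0.37 read 271 and 208 with vehicle and 282 and 339 with RA. Mcm6 was at 0.04 and, on its other probe set above the filter, 0.27, from signals of 612 and 600 to 711 and 750. Mcm7 was at 0.23 on its brightest probe set, which read 817 and 771 with vehicle, 723 on RA array 1 and 1196 on RA array 2, and between 0.03 and 0.10 on the other 3. Here the RA arrays lay on either side of both vehicle arrays.

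Mcm4 and Mcm5 were read in opposite directions by their probe sets. The brightest probe set of Mcm4 read 1165 and 1133 with vehicle, 1213 on RA array 1 and 713 on RA array 2 (log2 change −0.30 ± 0.28), while the other read 680 and 565 with vehicle and 677 and 702 with RA (0.15). RA array 2 was thus the lowest array on one and the highest on the other. For Mcm5 the values were −0.02 and 0.08.

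The loading factors showed the same small scale. Cdt1, which brings the helicase to origins, stood at 0.10 and 0.13 on 2 probe sets. Cdc6, its partner in loading, read 87.0 and 85.4 with vehicle and 87.8 and 112 with RA (0.19 ± 0.25). Pcna read 1224 and 1206 with vehicle, 1107 on RA array 1 and 1709 on RA array 2 (0.18 ± 0.26), so that RA array 2 alone stood above the rest.

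Among the nucleotide enzymes, Rrm2, the regulated small subunit of ribonucleotide reductase, was lower on all 3 of its probe sets above the filter. One read 341 and 358 with vehicle and 200 and 255 with RA, 1.53-fold lower on that scale with both RA arrays below (log2 change −0.62 ± 0.21; limma, unadjusted p = 0.0188, adjusted p = 1). The brightest read 797 and 889 with vehicle and 685 and 793 with RA (−0.19 ± 0.20), again with both RA arrays below, and the dimmest gave −0.29 ± 0.30. The large subunit gene Rrm1 had no common direction, with 0.19 on the brighter probe set and −0.21 on the other. Tk1, thymidine kinase, read 151 and 151 with vehicle and 100 and 168 with RA (−0.21 ± 0.28).

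Tyms could hardly be read. Its brightest probe set of its own gave signals of only 18.2 and 23.7 with vehicle and 9.62 and 17.5 with RA (−0.51 ± 0.34), and its other 3 lay under the signal filter. Another probe set is annotated to Tyms together with its pseudogene Tyms-ps and names neither here. Without Tyms the S phase median was 0.0994.

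**Figure D2:**
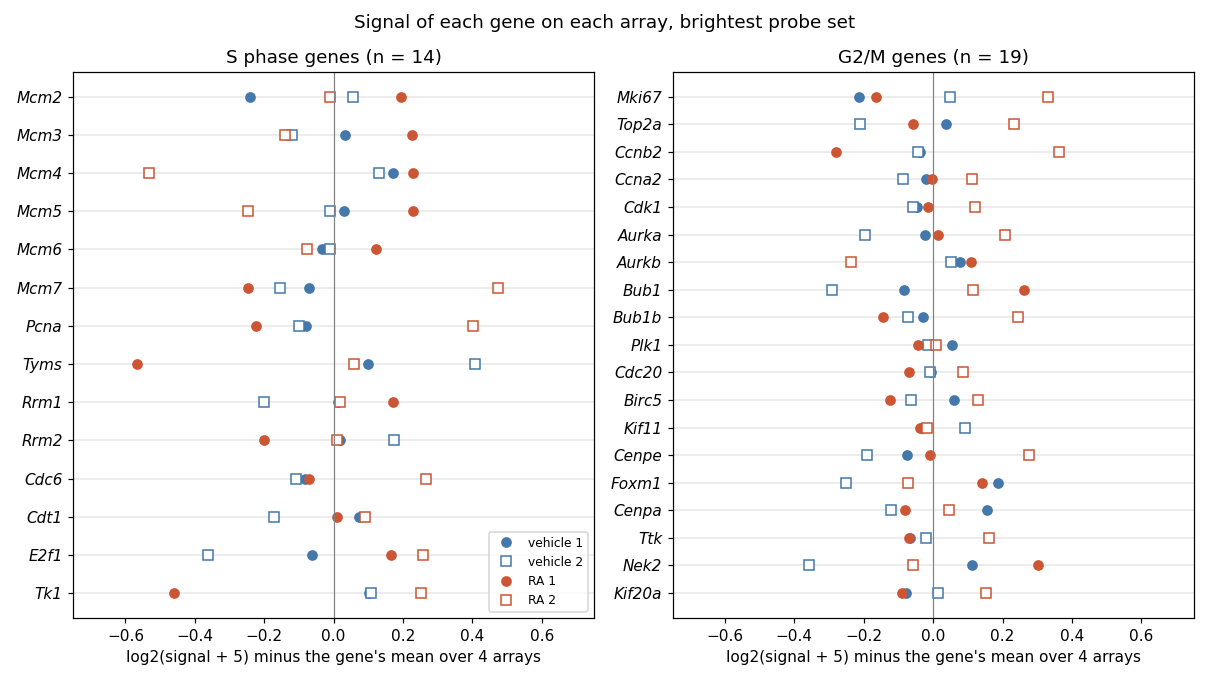
Signal of each of the 33 genes on each of the 4 arrays, as log2(signal + 5) minus the gene's mean over the arrays, on its brightest probe set (blue, vehicle; red, RA; filled, number 1; open, number 2). RA array 2 is the highest of the 4 in 12 of the 19 G2/M genes and in 6 of the 14 S phase genes. Over all genes above the filter it is the highest in 26.8%. It is the lowest for Mcm3, Mcm4, Mcm5, Mcm6 and Aurkb.

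In the G2/M group the mitotic engine was nearly level. Cdk1, the kinase that drives entry into mitosis, read 555 and 551 with vehicle and 568 and 624 with RA (0.11 ± 0.19). Its partners Ccna2, at 0.11 ± 0.19, and Ccnb2, at 0.08 ± 0.25, stood alike. The RA arrays were both above the vehicle arrays for Cdk1 and Ccna2, and the arrays overlapped for Ccnb2, which read 226 and 225 with vehicle, 190 on RA array 1 and its highest value on RA array 2.

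Bub1, a kinase of the spindle checkpoint, had the largest difference of the group on the brightest probe sets. It read 392 and 339 with vehicle and 500 and 451 with RA (0.38 ± 0.20; limma, unadjusted p = 0.0909, adjusted p = 1), with both RA arrays above. It stayed between 0.27 and 0.48 with any 1 array left out. The other probe set of Bub1, with signals of at most 16.4, lay under the filter and gave −0.44, so the mean of both was −0.0331. The other checkpoint genes were at 0.10 for Bub1b (0.05 and 0.10 on its others), 0.09 for the kinase gene Ttk (−0.17 on its other probe set) and 0.02 for Cdc20, the activator of the anaphase complex (0.11 and −0.13 on its others).

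Of the mitotic kinases, Aurka stood at 0.22 ± 0.22 and Nek2, a centrosome kinase, at 0.24 ± 0.26, with −0.000358 on its other probe set above the filter. Aurkb, the kinase of the chromosomal passenger complex, stood at −0.13 with −0.38 on a second probe set, and its partner Birc5 (survivin) at 0.01. Plk1 was at −0.04, with signals between 77.1 and 83.0 on all 4 arrays. On these brightest probe sets the arrays of the groups overlapped for all but Aurka, which read 162 and 143 with vehicle and 166 and 191 with RA.

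The remaining G2/M genes covered chromosomes and spindle. Mki67, the proliferation marker Ki-67, read 568 and 682 with vehicle and 587 and 831 with RA (0.17 ± 0.23). Top2a, the topoisomerase that untangles sister chromatids, read 766 and 643 with vehicle and 715 and 877 with RA (0.17 ± 0.21). The motor gene Cenpe, of the kinetochore, was at 0.27 with 0.01 on its other probe set, and Kif20a, a motor of late mitosis, at 0.06. Kif11, the spindle motor Eg5, was at −0.06 with 0.10 and −0.38 on its other probe sets, the last with both RA arrays below. Cenpa, the centromeric histone, was at −0.04 with 0.05 and −0.31 on 2 dim probe sets. Foxm1, a transcription factor that activates G2/M genes, gave 0.07, 0.36 and −0.24 on 3 probe sets.

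The median of the G2/M group was positive except with RA array 2 left out. RA array 2 lay above vehicle array 2 in 17 of the 19 genes (median difference 0.195), where 52.8% of all genes did. RA array 1 lay above vehicle array 1 in 8 of the 19 (median −0.00578), where 50.7% of all genes did. In the S phase group these counts were 7 and 8 of 14, with medians of 0.0629 and 0.0349. Without RA array 2 the G2/M median was −0.0255, and without RA array 1 it was 0.173. Vehicle array 2 was the lowest of the 4 in 9 of the 19 G2/M genes, and in 3915 of all 13011. RA lay above vehicle at both numbers in 7 of the 19 and below at both in 1, against 3701 and 3243 of all 13011. The S phase median was 0.0325 without vehicle array 2. RA array 2 is also the array with the highest 99th percentile of signal and the highest 3' to 5' ratios, and the part of these in the result was not tested; with quantile normalization the G2/M median was 0.0894 and with cyclic loess, an alternative chosen after seeing the data, 0.0855.

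How far probe sets of one gene agree bounds what any single one can show. Of the 21 genes with at least 2 probe sets above the filter, 11 gave RA changes of one sign on all of them (9 positive, 2 negative) and 10 gave both signs. The range within a gene was 0.25 at the median. The 2 genes lower on every such probe set were Rrm2 and Aurkb, and the 9 higher on every one were Mcm2, Mcm6, Mcm7, Cdt1, E2f1, Top2a, Ccna2, Bub1b and Cenpe.

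**Figure D3:**
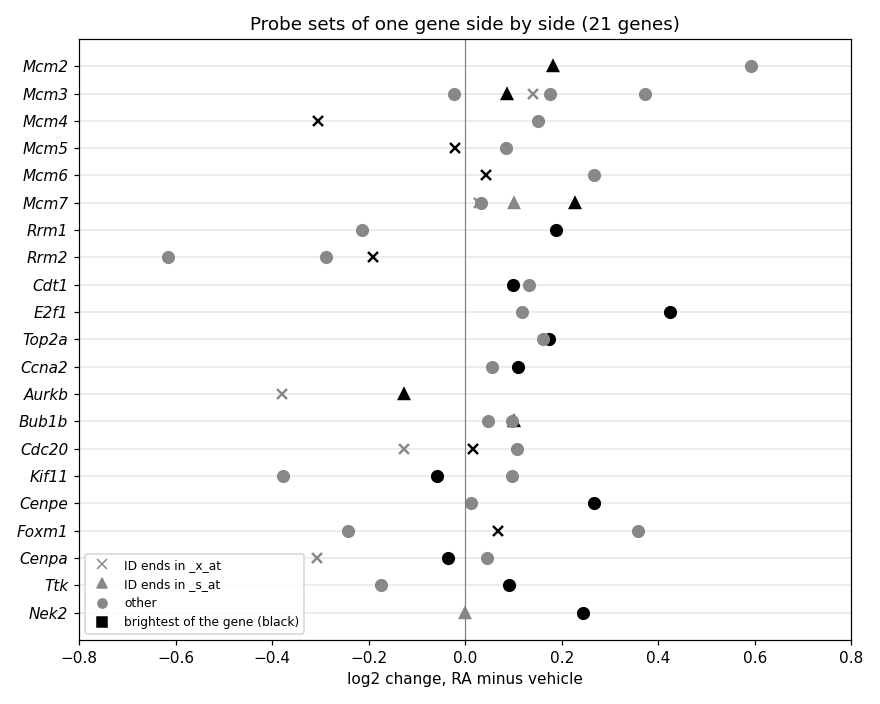
Log2 change, RA minus vehicle, of every probe set above the signal filter for the 21 genes that have at least 2 (crosses and triangles, probe sets whose ID ends in _x_at or _s_at, which can match several transcripts; circles, others; black, the brightest of the gene). Mcm2 at 0.59 and Rrm2 at −0.62 mark the ends, each on a probe set that is not the brightest of its gene.

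Number 2 against number 1 asks whether the division genes follow the split of the samples that their titles carry and the treatment does not. No member passed here either, although other genes did. In limma 0 of the 65 member probe sets passed at an adjusted p under 0.05, against 0.581% of all probe sets (157 of 27022; 0.403% higher and 0.178% lower on the arrays numbered 2). At an unadjusted p under 0.05 there were 6 of 65, 4 higher and 2 lower, against 18.3% of all (9.42% higher and 8.92% lower). The 95% interval lay within a 2-fold change for 59 of the 65, against 76.6% of all probe sets; the other 6 were probe sets of Tyms, Top2a, Bub1b, Cenpa (2) and Nek2. On the brightest probe sets alone it was so for 32 of the 33 genes, all but Tyms. The median log2 change was −0.0177 in the S phase group, turning to 0.0234 with quantile normalization and 0.0289 with cyclic loess, against −0.0562 over all genes above the filter. In the G2/M group it was 0.0618, and 0.00237 with equal array medians. Single genes ran from −0.41 for Nek2 to 0.47 for Tyms.

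The groups by number were separated in 11 of the 33 genes (33.3%), against 51.9% of all genes. Both arrays numbered 2 were higher in 5 (Tk1, Mki67, Kif11, Ttk and Kif20a), against 21.4% of all genes, and lower in 6 (Mcm3, Mcm4, Mcm5, Aurkb, Foxm1 and Nek2), against 30.5%. The median size of the difference, whatever its sign, was 0.17 over the 33 genes and 0.24 over all genes above the filter.

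Mki67 was the gene whose brightest probe set differed most by unadjusted p. The 2 arrays numbered 1 read 568 and 587 and the 2 numbered 2 read 682 and 831, 1.30-fold higher on the log2(signal + 5) scale (log2 change 0.38 ± 0.17; limma, unadjusted p = 0.0458, adjusted p = 0.261). Nek2 was lower on both of its probe sets above the filter, at −0.41 ± 0.21 and −0.69 ± 0.21, the second with signals of 133 and 147 on the arrays numbered 1 and of 88.8 and 80.3 on those numbered 2 (limma, unadjusted p = 0.00714, adjusted p = 0.128).

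The largest difference was on a dim probe set of Top2a, which read 32.2 and 34.8 on the arrays numbered 1 and 68.9 and 81.3 on those numbered 2, 2.08-fold higher on the log2(signal + 5) scale, which understates the fold of dim probe sets (1.05 ± 0.24; limma, unadjusted p = 0.00124, adjusted p = 0.0749). The brightest probe set of Top2a gave 0.02 by number. A dim probe set of Bub1b gave 0.77 beside 0.17 on the brightest, and one of Cenpa gave 0.70 beside −0.07. The dimmer probe set of Cenpe gave −0.46 beside 0.08. In each of these genes the difference by number was thus on a probe set other than the brightest. With the treatment as a term in the fit, these probe sets of Top2a (limma, adjusted p = 0.00094), Nek2 (limma, adjusted p = 0.0185) and Bub1b (limma, adjusted p = 0.03) passed, among 3007 probe sets in all. Without vehicle array 2, number 2 is RA array 2 alone, which the fit assumes to vary like the arrays numbered 1. The log2 changes were then −0.73 for Mcm4, 0.63 for Mcm7, 0.55 for Pcna and 1.17 for the dim probe set of Top2a. These values are thus the readings of RA array 2 against both arrays numbered 1.

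Markers of other cells also differed by number. The summed signal of 7 mast cell markers was 3449 and 2335 on the vehicle and RA arrays numbered 1 and 7454 and 6874 on those numbered 2, and that of 8 macrophage and leukocyte markers was 1110 and 856 against 2296 and 1991. The median log2 change was 1.29 for the mast cell list, with 4 of 7 markers separated upward, and 1.08 for the macrophage list, with 7 of 8, while it was −0.46 for 12 germ cell markers, with 7 separated downward and 2 upward. For Sertoli, Leydig, stromal and endothelial markers it was 0.13, 0.54, 0.32 and 0.15. Over genes above the filter, 21.4% were separated upward and 30.5% downward. The summed signal of the germ cell markers was 9865 and 9057 on the arrays numbered 1 and 9492 and 9027 on those numbered 2. That sum hides opposite directions, as 9 of the 12 were lower and 3 higher. Sall4, the brightest, read 2267.5 and 2311 on the arrays numbered 1 and 2530 and 3776 on those numbered 2. The part of all these markers in the differences of Mki67, Nek2 and Top2a was not tested.

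**Figure D4:**
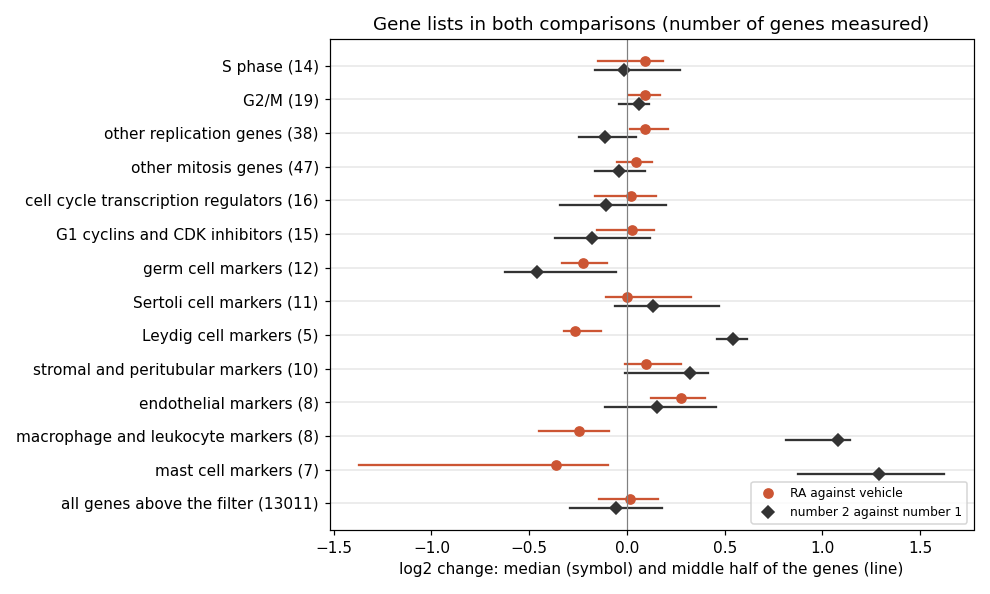
Median log2 change (symbols) and the interquartile range of the genes (lines) for the S phase and G2/M groups, 4 lists of other cell cycle genes, 7 marker lists and all genes above the filter, RA against vehicle in red and number 2 against number 1 in black. The medians of the cell cycle lists stay within 0.2 of 0 in both comparisons, while those of the mast cell and macrophage markers stand at 1.29 and 1.08 by number. The lines of the cell cycle lists reach further, to −0.37 by number for the G1 cyclins and CDK inhibitors.

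Other genes of the same machinery were read from lists by function. None passed with RA. Of 38 other replication genes measured of 40 listed, 0 passed, 31 were positive and 7 negative, and the median was 0.0901. Of all 13011 genes above the filter, 6877 were positive. Both RA arrays were above both vehicle arrays in 5 (13.2%) and below in 1 (2.63%), against 14.1% and 12.6% of genes above the filter. Rpa1, of the single-strand binding complex, had the smallest unadjusted p, with signals of 943 and 776 against 1123 and 1165 (0.42 ± 0.21), followed by the replisome factor gene Wdhd1 (0.36 ± 0.22) and by Pole2, a subunit of DNA polymerase epsilon, in the other direction (−0.38 ± 0.24). A second probe set of Rpa1 gave 0.12. Vehicle array 2 was the lowest of the 4 in 24 of these 38 genes, and in 3915 of all 13011.

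Of 47 other mitosis genes measured of 48 listed, 0 passed, 29 were positive and 18 negative, with a median of 0.0447. Both RA arrays were above in 9 (19.1%) and below in 2 (4.26%), against 14.1% and 12.6% of genes above the filter. The smallest unadjusted p values belonged to the condensin gene Ncaph (0.28 ± 0.21), to Melk (0.24 ± 0.21) and to the centromere gene Cenpi (0.22 ± 0.23). By number, 1 of the 47 passed, where 0.581% of all probe sets did. It was Kif15, a spindle motor, on a dim probe set (log2 change 1.65 ± 0.27, limma, adjusted p = 0.0344). That probe set read 8.07 and 6.89 on the arrays numbered 1 and 39.2 and 29.6 on those numbered 2. Spc25 of the kinetochore, at −0.53 ± 0.20, and Cks2, at 0.37 ± 0.16, were next and did not pass.

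Of 38 other replication genes, 0 passed by number, where 0.581% of all probe sets did, and the median was −0.11. Both arrays numbered 2 were lower in 15 (39.5%) and higher in 3 (7.89%), against 30.5% and 21.4% of genes above the filter. Prim2, a primase subunit, stood at −0.71 ± 0.16, with −0.56 on its other probe set (limma, adjusted p = 0.0827). The origin recognition gene Orc3 stood at 0.48 ± 0.18, with 0.54 and 0.63 on its other 2, and Uhrf1, which links replication to DNA methylation, at 0.34 ± 0.15.

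The regulators above these genes did not pass in either comparison. Among 16 further transcription regulators of the E2F, retinoblastoma and DREAM families, the median with RA was 0.0195. E2f6 stood at 0.29 ± 0.21 and E2f3 at 0.25 ± 0.19, with −0.30 and −0.16 on their other probe sets above the filter. Lin9 stood at −0.45 ± 0.33, from a signal of 183 on RA array 2 against 364 to 393 on the other arrays. By number, Tfdp2 stood at −0.36 ± 0.16, Lin54 at −0.41 ± 0.19 and E2f5 at −0.53 ± 0.25. Among 15 G1 cyclins, their kinases and inhibitors, the median with RA was 0.0266. Ccne1, the cyclin that opens S phase, read 112 and 46.5 with vehicle and 117 and 134 with RA (0.75 ± 0.39, and −0.01 on its other probe set). Cdkn2b stood at −0.34 ± 0.26 and Cdk6 at 0.24 ± 0.19, with −0.02 on the other probe set of Cdk6. By number, Ccne2 was at −0.53 ± 0.20, the inhibitor genes Cdkn1a at 0.39 ± 0.16 and Cdkn1c at −0.51 ± 0.21.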

How the data were processed

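Vehicle and RA had 2 arrays each. Amplified cDNA was hybridised and images were quantified with GCOS software, per the labels. The authors deposited a linear intensity for each probe set; the sources used here do not say how probes were combined or scaled. Without 64 control probe sets, intensities were converted to log2(intensity + 5). Probe sets whose mean log2 value was below the 40th percentile were left out, and 27022 remained. RA against vehicle and number 2 against number 1 were each fitted with limma 3.58.1 (R 4.3.3; lmFit, then eBayes with trend; two-sided), with 2 residual degrees of freedom and no term for the other factor. P-values were adjusted by Benjamini-Hochberg over all 27022.

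Gene names came from the array's annotation, updated by Entrez ID (34741 probe sets matched) to a gene table of GRCm38.p6; 34945 probe sets name 1 gene, 932 name several and 9160 name none. Each gene was read on its brightest probe set. Every member is named. From each list of other cell cycle genes the 3 with the smallest unadjusted p per comparison are named, and marker lists are given by summed signal and median. The members and lists were chosen with earlier results of these data known. The fit was tested on simulated data with seeded changes, of which it called large ones more often than small ones. None of the smallest seeded changes, of 2-fold, was called. Alternatives changed the normalization, pseudocount, filter, variance trend, block, probe set type and probe set averaging, or left out each array. The number of arrays limits the precision. Figures were drawn with matplotlib 3.10.9.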

Additional observations from a re-analysis of the deposited data

How the results depend on the processing

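No member passed in RA against vehicle under any alternative run, and none in number 2 against number 1 except as given here. Over all probe sets, the count of calls with RA was 0 and lay between 0 and 152 with 1 array left out (152 without RA array 2, 90 without RA array 1, 1 without vehicle array 1); by number it was 157, and 432 with equal array medians, 0 with no filter (7116 at an unadjusted p under 0.05), 91 with the filter at the 60th percentile, 40 with no intensity trend, 3007 with the treatment as a block (3 of them members) and between 172 and 1463 with 1 array left out (1463 without vehicle array 2, 1099 without vehicle array 1), when 0 to 4 members passed. An arm left with 1 array is assumed to vary like the other. The cause was not tested.

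The fit of RA against vehicle with the number as a replicate block called 543 probe sets, 221 of them higher, and 0 members; the smallest adjusted p of a member was then 0.0519 (Rrm2, limma) and the next 0.0686 (Mcm2, limma). The differences between arrays 2 and 1 correlated between vehicle and RA at r = 0.526 over probe sets, but with 2 pairs and no label for what the number marks the samples share only a number.

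The S phase median with RA was 0.183 with equal array medians, and between 0.0325 and 0.099 with 1 array left out; the G2/M median was 0.179 and between −0.0255 and 0.173. By number the S phase median was −0.0772 with equal medians, 0.0234 with quantile normalization, 0.0289 with cyclic loess, 0.0353 with only probe sets not ending in _s_at or _x_at, 0.0634 with the mean over probe sets and between −0.107 and 0.0762 with 1 array left out, and the G2/M median was 0.00237 with equal medians and between −0.0325 and 0.151 with 1 array left out.

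The following values changed sign; none of them was called. For RA, quantile normalization gave −0.022 for Birc5, 0.00431 for Plk1 and 0.0225 for the second probe set of Nek2. Cyclic loess gave −0.0283 for Birc5, −0.00463 for Cdc20 and 0.0159 for that of Nek2. Equal medians gave 0.054 for Cenpa, 0.0306 for Kif11, 0.0694 for Mcm5, 0.0473 for Plk1 and 0.0856 for that of Nek2, and the pseudocount of 20 gave 0.00311 for the last. The mean over probe sets gave −0.0331 for Bub1, −0.00138 for Cdc20, −0.0718 for Rrm1 and −0.0424 for Ttk. Without the _s_at and _x_at probe sets, Mcm3 was at −0.0242, Mcm4 at 0.152 and Mcm5 at 0.0846. By number, quantile normalization gave 0.0399 for the fourth-brightest probe set of Mcm3, 0.0486 for Plk1 and −0.023 for Top2a. Cyclic loess gave 0.00446 for E2f1, 0.0275 for that of Mcm3, −0.016 for the second of Mcm6, 0.0776 for Plk1 and −0.0362 for Top2a. Equal medians gave −0.046 for Aurka, −0.0344 for Ccna2, −0.0134 for Mcm2, −0.0343 for that of Mcm6 and −0.0379 for Top2a. The mean over probe sets gave 0.183 for Bub1, 0.0208 for Cenpa, −0.189 for Cenpe, 0.186 for E2f1, −0.0639 for Mcm2, 0.30 for Mcm6 and −0.0199 for Tyms. Without the _s_at and _x_at probe sets, Mcm2 was at −0.174, Mcm5 at 0.0601 and Mcm6 at 0.0252.

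Signs also turned with 1 array left out, given as the lowest and highest value over the 4 arrays. Values ran from −0.30 to 0.047 for Aurkb, from −0.12 to 0.13 for Birc5, from −0.093 to 0.29 for Bub1b and from −0.49 to 0.69 for Bub1b on its dim probe set. Values ran from −0.24 to 0.40 for Ccnb2, from −0.062 to 0.092 for Cdc20, from −0.023 to 0.22 for Cdt1 and from −0.17 to 0.10 for Cenpa. Values ran from −0.15 to 0.29 for Foxm1, from −0.12 to 0.0042 for Kif11, from −0.056 to 0.19 for Kif20a and from −0.097 to 0.27 for Mcm3. Values ran from −0.69 to 0.077 for Mcm4, from −0.26 to 0.22 for Mcm5, from −0.034 to 0.20 for Mcm5 on its second probe set and from −0.056 to 0.14 for Mcm6. Values ran from −0.13 to 0.59 for Mcm7, from −0.083 to 0.41 for Mki67, from −0.42 to 0.42 for Nek2 on its second probe set and from −0.13 to 0.49 for Pcna. Values ran from −0.57 to 0.15 for Tk1, from −0.40 to 0.72 for Top2a on its dim probe set and from −0.026 to 0.21 for Ttk. These are for RA against vehicle. Values ran from −0.19 to 0.21 for Aurka, from −0.032 to 0.16 for Birc5, from −0.38 to 0.027 for Bub1 and from −0.075 to 0.12 for Ccna2. Values ran from −0.032 to 0.34 for Cdc6, from −0.028 to 0.15 for Cdk1, from −0.21 to 0.050 for Cdt1 and from −0.19 to 0.045 for Cenpa. Values ran from −0.15 to 0.32 for Cenpe, from −0.42 to 0.21 for E2f1, from −0.17 to 0.26 for Mcm2 and from −0.54 to 0.19 for Mcm2 on its second probe set. Values ran from −0.40 to 0.29 for Mcm3 on its fourth-brightest probe set, from −0.26 to 0.047 for Mcm4 on its second probe set, from −0.071 to 0.19 for Mcm5 on its second probe set and from −0.13 to 0.19 for Mcm6 on its second probe set. Values ran from −0.059 to 0.040 for Plk1, from −0.055 to 0.52 for Rrm2 on its dimmest probe set, from −0.17 to 0.58 for Rrm2 on its second probe set and from −0.20 to 0.24 for Top2a. These are for number 2 against number 1.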

Other observations

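The type of probe set moved with the reading of RA array 2. Over the member probe sets above the filter, the median log2 difference of RA array 2 from RA array 1 was −0.212 for the 11 whose ID ends in _x_at, −0.205 for the 7 that end in _s_at and 0.195 for the other 47. The median change of RA against vehicle was −0.0202, 0.101 and 0.0968 in the same order, and that of number 2 against number 1 was −0.115, 0.0459 and 0.0455. This split was chosen after its values were seen and was not tested. For 11 of the 33 genes the brightest probe set was of the first or second type, among them Mcm2, Mcm3, Mcm4, Mcm5, Mcm6 and Mcm7.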
